A study of Mus musculus with 15 samples.

Results

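Interferon-stimulated genes are transcribed after interferon engages its receptor, and 31 of them were followed here by name, out of 50600 genes in the count tables, through 5 sorted populations of mouse epithelial cells. They form a list of antiviral effectors, nucleic acid sensors and regulators, taken by symbol from the table of all genes. All 31 were found and all 31 passed the low-count filter, none with fewer than 10 reads in a whole group. The cells were primary epithelial cells of untreated male C57BL/6J mice aged 8 weeks: cortical thymic epithelium (cTEC), medullary thymic epithelium (mTEC), and epithelium of skin, colon and lung. The submitters set out to learn why such epithelia carry unequal amounts of MHC class I. Each group had 3 libraries, and each library came from a pool of sorted cells from 5 mice, so the spread between libraries is a spread between pools. Colon and lung RNA went through the KAPA RNA HyperPrep PolyA kit and all other RNA through the KAPA RNA Stranded PolyA kit, so wherever a comparison crosses kits, tissue and kit cannot be told apart. Because these are bulk samples, a larger share of cells expressing a gene cannot be told apart from more RNA per cell.

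Interferons signal through receptor-bound kinases to transcription factors, STAT2 and IRF9 among them, that bind a DNA element called the interferon-stimulated response element (ISRE); interferon gamma acts mainly on a second element, the gamma-activated sequence (GAS). The induced proteins block viral RNA, translation and budding, sense foreign nucleic acid, and feed back on the pathway. In the thymus, epithelial cells of cortex and medulla select developing T cells, and the thymus is known for making interferon without infection.

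The promoter sequences below show the element by which these genes are known to be induced. RefSeq promoter windows (build GRCm38.p6, 250 bases before to 50 after the start) were found for 22 of the 31 members; none matched for Usp18, Oas2, Dhx58, Zbp1, Mx1, Mx2, Rtp4, Parp14 and Ifi27l2a. The ISRE core, GAAA and a second GAAA parted by any 2 bases and searched on both strands, was present in the window of 13 of the 22 members (59.1%), against 1079 of 27025 genes (3.99%). The GAS core TTCNNNGAA, also searched on both strands, was present for 5 of 22 members (22.7%) and for 9.55% of all genes. A match is a description of letters and not a binding site shown here. The 6 windows printed are those of members with an ISRE core whose mTEC minus cTEC fold changes were the lowest (Ifit1, Ifit3, Ifit3b) and the highest (Oas3, Trim30a, Oas1a). By position the members fall on 11 chromosomes, with 7 on chromosome 5 and all 4 IFIT genes on chromosome 19 (GRCm38). Each printed window shows the 250 bases before the start, 5′ to 3′ on the strand of the gene, with ISRE cores in capitals; a core on the other strand reads TTTC, any 2 bases, TTTC.
Ifit1: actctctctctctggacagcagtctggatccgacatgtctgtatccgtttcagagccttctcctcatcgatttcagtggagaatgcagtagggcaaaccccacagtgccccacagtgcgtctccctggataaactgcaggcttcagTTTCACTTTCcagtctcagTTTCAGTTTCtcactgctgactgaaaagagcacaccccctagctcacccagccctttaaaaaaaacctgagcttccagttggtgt
Ifit3: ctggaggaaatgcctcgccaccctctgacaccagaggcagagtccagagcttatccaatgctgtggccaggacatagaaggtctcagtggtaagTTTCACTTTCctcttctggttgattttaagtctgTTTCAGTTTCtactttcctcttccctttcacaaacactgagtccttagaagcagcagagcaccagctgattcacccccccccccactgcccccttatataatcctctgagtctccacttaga
Ifit3b: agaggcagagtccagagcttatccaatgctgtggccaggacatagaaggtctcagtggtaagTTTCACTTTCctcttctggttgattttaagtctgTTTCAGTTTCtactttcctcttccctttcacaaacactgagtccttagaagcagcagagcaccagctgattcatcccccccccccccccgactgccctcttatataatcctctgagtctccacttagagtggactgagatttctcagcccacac
Oas3: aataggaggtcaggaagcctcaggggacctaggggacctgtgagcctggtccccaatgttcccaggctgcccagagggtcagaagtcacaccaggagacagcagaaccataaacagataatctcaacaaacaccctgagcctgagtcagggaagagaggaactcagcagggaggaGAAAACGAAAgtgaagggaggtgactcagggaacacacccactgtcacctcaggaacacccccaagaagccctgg
Trim30a: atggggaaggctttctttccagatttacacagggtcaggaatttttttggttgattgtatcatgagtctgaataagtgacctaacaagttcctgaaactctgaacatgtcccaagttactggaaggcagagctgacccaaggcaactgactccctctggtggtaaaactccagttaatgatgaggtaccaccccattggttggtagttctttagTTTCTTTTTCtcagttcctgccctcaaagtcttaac
Oas1a: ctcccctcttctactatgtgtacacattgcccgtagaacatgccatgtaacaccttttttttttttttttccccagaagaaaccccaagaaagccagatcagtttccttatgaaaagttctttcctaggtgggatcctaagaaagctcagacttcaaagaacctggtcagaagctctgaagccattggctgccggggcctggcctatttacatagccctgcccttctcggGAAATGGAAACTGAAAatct
These lie at chr19:34640639-34640888, chr19:34583279-34583528 and chr19:34607707-34607956 on the plus strand, and at chr5:120777660-120777909, chr7:104465194-104465443 and chr5:120907526-120907775 on the minus strand. Ifit1 holds 2 cores that begin 104 and 85 bases before the start, and Oas1a holds 2 overlapping cores that begin 20 and 14 bases before it. The upstream sequences of Ifit3 and Ifit3b were identical at 217 of 218 aligned bases, gaps left out, and both carry 2 cores in the same order. The printed windows also differ by bases inserted around a run of C. Among the 9 members with a window and no match were Oasl2 and Ifi44, whose levels are given below.

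Reads counted to genes ran from 12946533 in a skin library to 41978665 in a lung library. Summed over each list, defining markers were highest in the matching group. The summed level of 7 cTEC genes was 3403 to 9787 CPM (counts scaled to library size) in cTEC against 556 to 711 in mTEC. That of 7 mTEC genes was 2975 to 3346 in mTEC against 748 to 1379.8 in cTEC. Single markers did not all follow: the mTEC marker Cldn4 averaged 217 CPM in mTEC, 1593 in colon and 852 in skin. The 3 cTEC libraries were unequal, with 4004, 3403 and 9787 CPM of cTEC markers in replicates 1, 2 and 3, so replicate 3 stands apart, and spread, order and calls between the thymic groups are also given without it. In skin, replicate 1 had 14.8% of its gene reads on Gm42418, against 0.979% to 4.89% in the other 14 libraries. Its sense counts were 8.43 times its opposite-strand counts, against 13.0 to 19.3 times in the other 14. All CPM here are scaled with TMM factors, and values for 3 libraries are given in the order of replicates 1, 2 and 3.

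All 31 members differed among the 5 groups in edgeR's quasi-likelihood test (p adjusted by Benjamini and Hochberg's method over the 19107 genes tested), as did 90.6% of all genes tested, so that count says little about the members. The summed level of the members was 6834, 9790.1 and 3724 CPM in cTEC and 4847, 8062 and 4223 CPM in mTEC. It was 341, 214 and 283 CPM in skin, 361, 331 and 369 CPM in colon, and 908, 1169 and 1086 CPM in lung. Every thymic library was above every extrathymic one in this sum. Cxcl10 alone made up 18.0% to 36.0% of the thymic sums, and without it the order of thymic above extrathymic libraries held, with 3055 CPM in the lowest thymic and 1113 CPM in the highest extrathymic library.

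**Figure D1:**
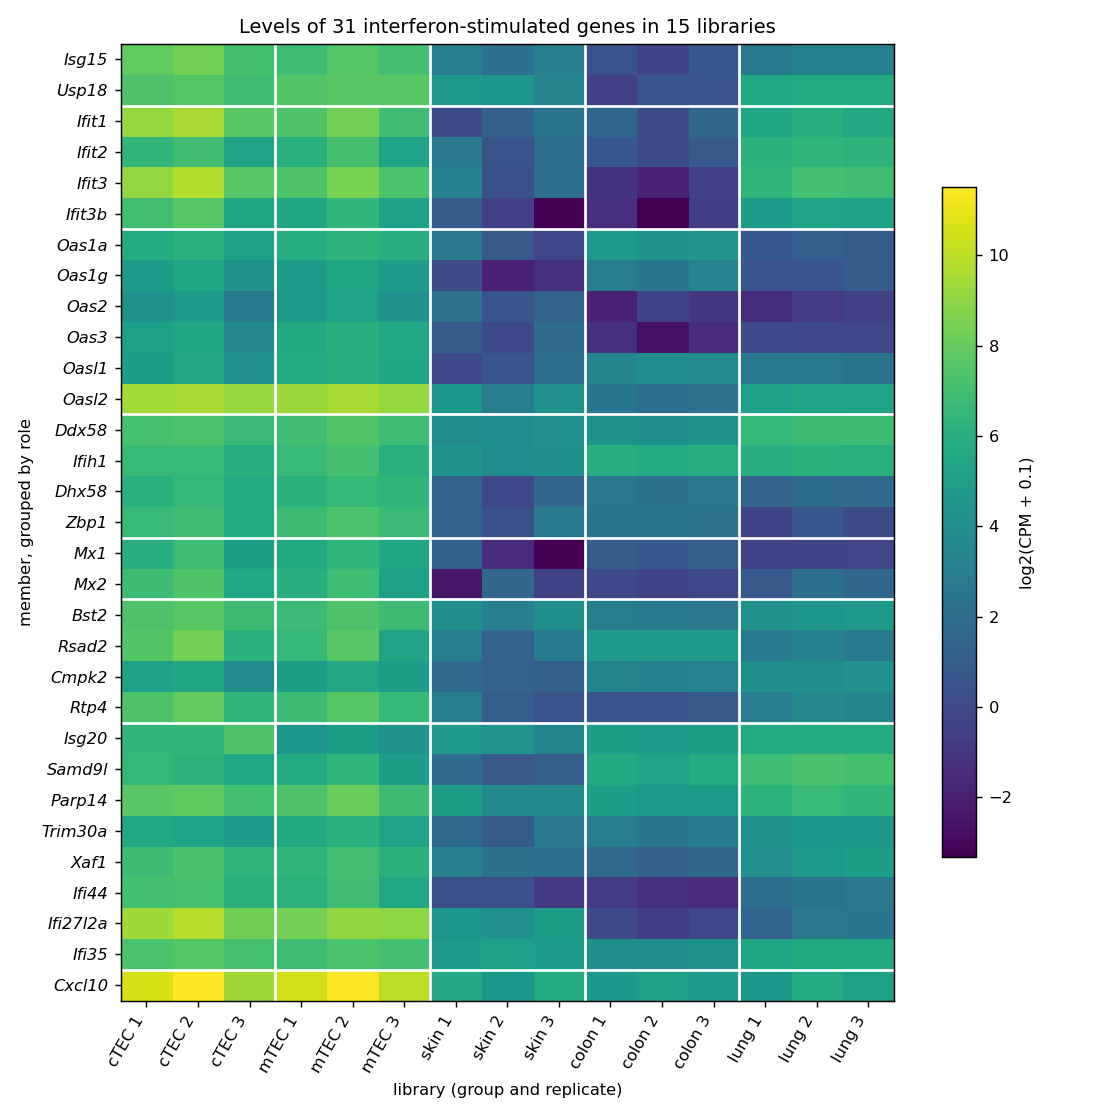
Level of each of the 31 members (rows, grouped by role) in each of the 15 libraries (columns), as log2(CPM + 0.1) on the colour scale. The 6 thymic columns are brightest in nearly every row; Samd9l is brightest in lung, and the OAS genes Oas1a and Oas1g are brighter in colon than in lung or skin.

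Gene by gene, 24 of the 31 members had all 6 thymic libraries above all 9 extrathymic ones, against 10.1% of all genes tested. The 7 exceptions were Ifit2, Ifit3b, Ddx58, Ifih1, Cmpk2, Isg20 and Samd9l. The highest group mean lay in cTEC for 16 members, in mTEC for 14 and in lung for 1, Samd9l. The lowest mean lay in colon for 17, in skin for 11 and in lung for 3 members.

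Within the kit shared by thymus and skin, all 31 members were higher in cTEC than in skin, where 32.5% of all genes were called higher and 23.9% lower. The median log2 fold change of the members was 4.63, against 0.19 over all genes. Against skin, mTEC was higher for 30 of 31 members (34.6% of all genes higher, 22.4% lower), with a median of 4.56 against 0.22 over all genes; the exception was Isg20. Against colon, cTEC was higher for 30 members (34.6% of all genes higher, 30.5% lower; median 5.26) and mTEC for 29 (36.9% higher, 29.1% lower; median 5.01), with none called lower. The members not called were Samd9l in both and Isg20 in mTEC. Against lung the differences were smaller: cTEC was higher for 26 members and lower for 1 (30.9% of all genes higher, 28.6% lower; median 3.34), and mTEC was higher for 25 and lower for 2 (34.9% higher, 28.6% lower; median 3.19). These comparisons share samples, so their counts are not independent of each other.

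The ubiquitin-like protein ISG15, which is attached to target proteins, and USP18, the protease that removes it and dampens the interferon receptor, stood well above the extrathymic groups. Isg15 had 232, 325 and 139 CPM in cTEC and 118, 192 and 134 in mTEC. It had 7.71, 4.24 and 7.88 CPM in skin, 1.30, 0.699 and 1.52 in colon and 6.27, 9.14 and 8.94 in lung. The lowest thymic value was 118 CPM and the highest extrathymic one 9.14, and cTEC against skin gave log2 fold change 5.12 with SE 0.37, adjusted p = 6.91e-08. Usp18 had 186, 206 and 211 CPM in mTEC, the least variable of the members there, and 46.8, 52.4 and 52.7 in lung. In colon it was nearly silent, at 0.671, 1.43 and 1.43 CPM, and lung minus colon gave log2 fold change 5.41 with SE 0.37, adjusted p = 1.33e-08.

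The IFIT family, whose proteins bind viral RNA that lacks the marks of host transcripts, held the member with the largest fold change against colon, Ifit3, in cTEC (10.52) and in mTEC (9.30). Ifit3 had 549.7, 894 and 201 CPM in cTEC, 174, 372 and 158 in mTEC and 89.2, 133 and 123.1 in lung. It had 9.12, 1.15 and 3.88 CPM in skin and 0.358, 0.167 and 0.624 in colon. All thymic libraries lay above lung, and lung above skin and colon: cTEC minus colon gave log2 fold change 10.52 with SE 0.87, adjusted p = 1.01e-07, and mTEC minus lung, at 1.03, was not called (adjusted p = 0.113). Ifit2 went furthest in this respect, with 85.1, 124 and 37.3 CPM in cTEC, 69.0, 142 and 39.0 in mTEC and 74.5, 85.5 and 78.9 in lung. The 3 groups overlapped, and cTEC minus lung was 0.043 ± 0.47 (SE), not called. Ifit1 had 577, 782 and 211 CPM in cTEC and 42.1, 63.0 and 50.04 in lung, without overlap. Ifit3 and Ifit3b are near-identical copies, and reads that fit both were lost from the counts: the estimate that divides such reads was 1.63 and 1.45 times the unique count in the thymic libraries, and the split between the copies is uncertain.

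Members of the OAS family make or relate to oligoadenylates that switch on RNase L, an enzyme that cuts RNA. All 6 were higher in cTEC and in mTEC than in each of skin, colon and lung, although against colon the cTEC calls on Oas1a and Oasl1 were lost without replicate 2 of cTEC (adjusted p = 0.0863 and 0.0694), and that on Oas1a also without replicate 2 or 3 of colon (adjusted p = 0.0604 and 0.056). The highest by far in the thymus was Oasl2, with 689, 771 and 593 CPM in cTEC and 608, 760.5 and 568 in mTEC, against 33.3, 40.7 and 37.1 in lung. Outside the thymus the family split. Oas1a had 25.2, 20.1 and 21.3 CPM in colon, 1.60, 2.02 and 1.73 in lung and 6.11, 1.68 and 0.788 in skin, and lung minus colon gave log2 fold change -3.63 with SE 0.48, adjusted p = 1.40e-05. Oas1g and Oasl1 were also higher in colon than in lung (lung minus colon -2.27 and -1.13). Oas3 ran the other way, with 0.922, 0.867 and 0.804 CPM in lung and 0.313, 0.0666 and 0.267 in colon. Oas2 was highest outside the thymus in skin, with 4.98, 1.41 and 2.54 CPM, and did not exceed 0.699 CPM in any colon or lung library. Reads that fit both Oas1a and Oas1g were likewise lost from the counts, and the divided estimate was 1.58 and 1.49 times the unique count over all libraries.

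Among the nucleic acid sensors, Ddx58 encodes RIG-I and Ifih1 encodes MDA5, which detect viral RNA; Dhx58 encodes their relative LGP2, and Zbp1 a sensor of Z-form nucleic acid that can start cell death. The first pair was the least thymus-biased of the sensors. Ddx58 had 147, 159.5 and 109 CPM in cTEC, 123.5, 178 and 119 in mTEC and 98.4, 116 and 116 in lung, and neither thymic group was called against lung. That depended on the scaling. Both cTEC and mTEC were called higher than lung with DESeq2 size factors (adjusted p = 0.0392 and 0.0203) and upper quartile scaling (adjusted p = 0.0134 and 0.00837). DESeq2's own test also called both (adjusted p = 0.0339 and 0.0146). In skin and colon Ddx58 was low, at 15.9, 14.7 and 17.7 and 19.0, 17.1 and 18.9 CPM. Ifih1 had 102, 104 and 65.3 CPM in cTEC, 62.0, 55.7 and 62.0 in colon and 59.1, 72.2 and 69.1 in lung, and cTEC minus colon, at log2 fold change 0.59 with SE 0.23, adjusted p = 0.0333, was the smallest called difference between cTEC and colon. That call was lost without replicate 1 or 2 of cTEC (adjusted p = 0.105 and 0.125) and without any one colon library (adjusted p 0.0668 to 0.0943). By contrast Zbp1 had 101, 118 and 53.2 CPM in cTEC and 117, 157 and 112 in mTEC but 0.738, 1.503 and 0.990 in lung, the lowest group. Dhx58 had 71.5, 92.7 and 55.2 CPM in cTEC, 73.9, 99.1 and 86.0 in mTEC and 2.49, 3.61 and 3.53 in lung. The mTEC minus lung fold change of Zbp1, log2 fold change 6.89 with SE 0.53, adjusted p = 6.39e-08, was the largest of any member in that comparison.

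MX proteins are GTPases that block viral nucleocapsids; most inbred laboratory strains carry a defective Mx1, and the annotation lists Mx2 as a polymorphic pseudogene, so these are transcript levels only. Mx1 had 65.5, 121 and 30.3 CPM in cTEC and 50.4, 86.7 and 41.5 in mTEC. It had 2.35, 0.265 and 0 CPM in skin, 1.79, 1.57 and 2.18 in colon and 0.707, 0.723 and 0.773 in lung. All thymic libraries lay above all others; the skin values rest on 28 reads in all, and replicate 3 had none. Bst2, which encodes tetherin and holds budding virions at the membrane, had 162, 199.5 and 114 CPM in cTEC and 19.6, 23.0 and 24.96 in lung. Rsad2 encodes viperin, an enzyme that makes a chain-terminating nucleotide, and lies beside Cmpk2, a mitochondrial nucleotide kinase gene. Outside the thymus Rsad2 was highest in colon, at 24.5, 28.8 and 28.7 CPM, against 6.76, 8.93 and 6.96 in lung, whereas Cmpk2 was highest in lung, at 17.1, 16.6 and 17.7 CPM, against 10.1, 9.13 and 9.58 in colon. Both lung minus colon differences were called, at -1.85 and 0.83. The call on Cmpk2 (adjusted p = 0.0318) was lost on leaving out any one colon or lung library (adjusted p 0.0579 to 0.0914) and at a 2-fold threshold. Rtp4 had 162, 250.2 and 82.9 CPM in cTEC and at most 12.5 in any extrathymic library; its locus overlaps Gm45338 on the same strand, as Parp14 overlaps Gm49730, and shared reads are a limit for both.

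Samd9l (chr6:3372257-3399572), a gene that restrains cell growth and viral replication, was the one member with its highest level outside the thymus. It had 119.6, 153 and 142 CPM in lung, 51.9, 37.8 and 54.9 in colon and 3.48, 1.68 and 2.18 in skin. In cTEC it had 92.1, 81.3 and 45.0 CPM and in mTEC 53.3, 88.2 and 30.3. All 3 lung libraries lay above all thymic ones; mTEC minus lung gave log2 fold change -1.27 with SE 0.34, adjusted p = 0.00438, and cTEC minus lung gave log2 fold change -0.93 with SE 0.34, adjusted p = 0.0279. The second call was lost without replicate 3 of cTEC and without replicate 2 or 3 of lung (adjusted p = 0.12, 0.0749 and 0.0604, in that order) and under upper quartile scaling. Isg20 (chr7:78913424-78920396), which encodes an RNA exonuclease, had 86.5, 91.1 and 165 CPM in cTEC but 22.4, 31.004 and 20.1 in mTEC. Its mTEC level overlapped that of skin (26.6, 21.3 and 10.1 CPM) and lay below lung (53.4, 55.3 and 56.0 CPM).

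The other effectors followed the common pattern with different depths. Ifi27l2a, encoding a small mitochondrial membrane protein, had 665, 911 and 312 CPM in cTEC and 332, 519.9 and 499 in mTEC, against 0.984, 0.566 and 0.802 in colon. Among extrathymic groups it was highest in skin, at 22.1, 18.2 and 30.1 CPM. Ifi44 had 135, 149 and 74.1 CPM in cTEC and at most 1.15 in any skin or colon library. Ifi35 was the flattest of this set against skin, at 159, 194 and 145 CPM in cTEC and 28.7, 32.4 and 28.1 in skin, without overlap. In the thymus Parp14, Trim30a and Xaf1 averaged 191 ± 52.9, 37.1 ± 9.26 and 118 ± 33.7 CPM in cTEC (SD, n = 3). Parp14, an ADP-ribosyltransferase, Trim30a, a TRIM-family regulator, and Xaf1, linked to apoptosis, were highest outside the thymus in lung, with means of 89.2 ± 12.1, 21.8 ± 2.29 and 25.1 ± 6.33 CPM (SD, n = 3). Cxcl10 (chr5:92346638-92348889), the gene of a chemokine that draws activated T cells, had 1584, 2828 and 669 CPM in cTEC and 1468, 2904 and 1049 in mTEC. It had 49.4, 24.2 and 55.4 CPM in skin, 24.3, 33.2 and 25.4 in colon and 23.2, 55.4 and 33.7 in lung, and no pair of these 3 groups was called for it. Per length, in TPM, it led the members in both thymic groups, at 2927 ± 1642 in cTEC and 3299.6 ± 1611 in mTEC (SD, n = 3), followed by Ifi27l2a at 2719 ± 789 and 2179 ± 354. In colon the leading member per length was Isg20 and in lung Ifit3, at 34.9 ± 0.846 and 146 ± 32.7 TPM.

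**Figure D2:**
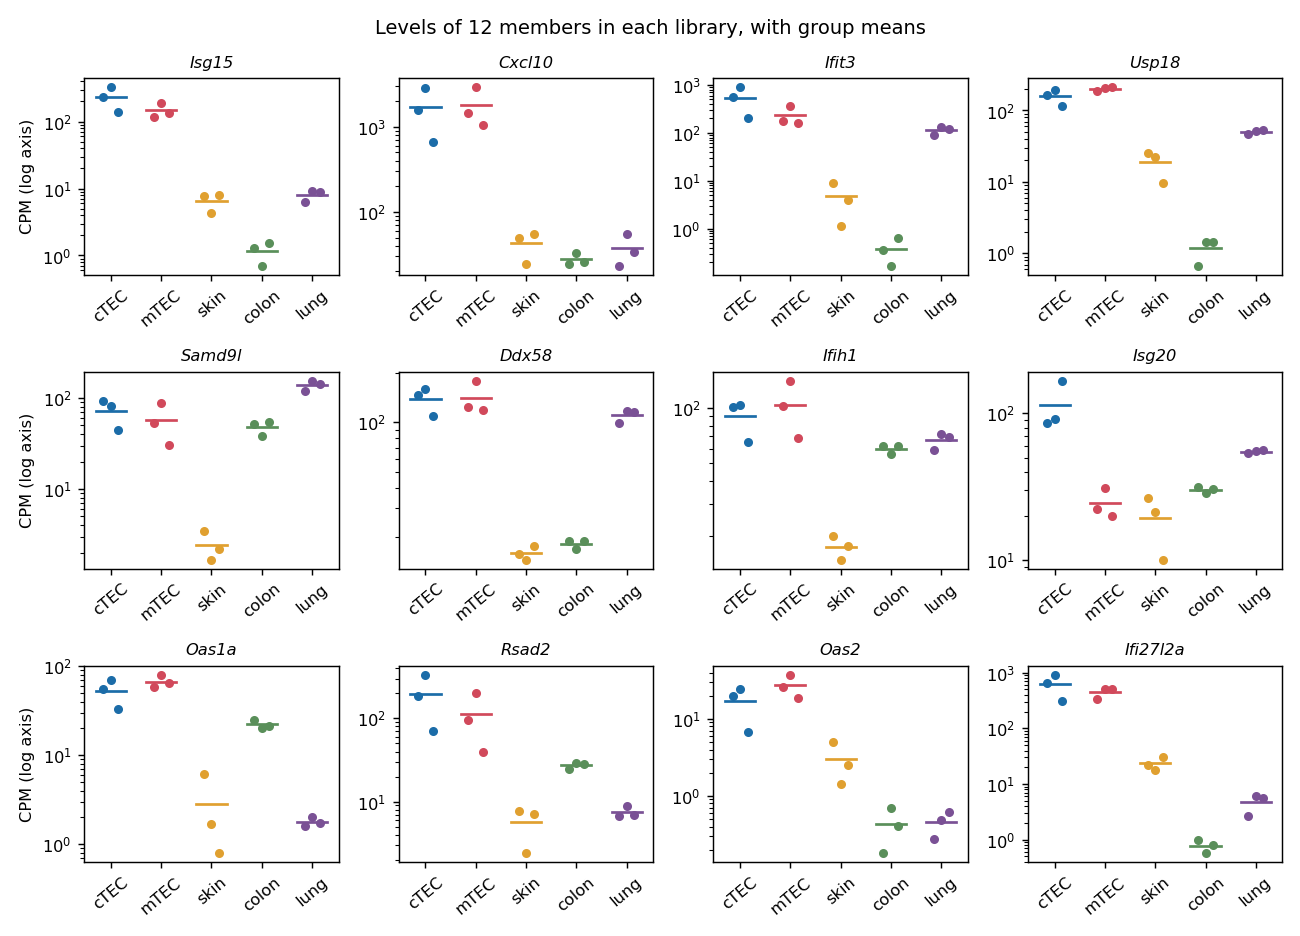
CPM (log axis) of 12 members in each library, points in the order of replicates 1 to 3 and bars at the group mean; the 12 were picked after their values had been seen, and a value of 0 is not drawn. Most members are high in both thymic groups; Samd9l peaks in lung, Isg20 is high in cTEC and low in mTEC, and Oas1a and Rsad2 are higher in colon than in skin or lung.

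Outside the thymus, most members were higher in lung than in colon, but some went the other way. Of the 31 members 21 were higher in lung than in colon and 6 lower (30.4% of all genes higher, 28.3% lower; median log2 fold change of the members 1.76, of all genes 0.0040). The 6 higher in colon were Oas1a, Oas1g, Zbp1, Rsad2, Oasl1 and Dhx58; the 4 not called were Mx1, Oas2, Ifih1 and Cxcl10. Some of these calls rested on single libraries: that on Oasl1 was lost without replicate 2 or 3 of colon or any lung library (adjusted p 0.055 to 0.0847), that on Dhx58 without replicate 1 or 3 of colon or of lung (adjusted p 0.0557 to 0.128), and that on Oas3 without replicate 2 of colon (adjusted p = 0.0754). The call on Mx2 was lost without any one colon library or replicate 2 or 3 of lung (adjusted p 0.0622 to 0.108). That on Isg20 was lost without any one colon library or replicate 3 of lung (adjusted p 0.0515 to 0.0701). All 4 IFIT genes were higher in lung, from 4.51 for Ifit1 to 8.27 for Ifit3. Markers of myeloid and dendritic cells moved with this comparison: their 9 genes summed to 1750.0 to 3289 CPM in lung and 6.99 to 9.31 in colon, 5 were called higher in lung and 1 lower, and none was at 0 in all lung libraries, while Flt3 was at 0 in colon. Most of the lung sum was Lyz2, at 2803, 1684 and 1187 CPM, which surfactant-making lung epithelium also expresses, and Csf1r, at 477, 590.3 and 549 CPM; Adgre1 and Itgam stood at 0.307, 0.636 and 1.95 and 0.0307, 0.231 and 0.0928 CPM. Endothelial markers were also higher in lung, with 5 of 5 genes called. Of 6 fibroblast markers 5 were called higher in lung and 1 lower, Lum, which averaged 2.32 CPM in lung and 8.53 in colon. The part of these cells in the lung levels was not tested.

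Skin and colon split more evenly, with 11 members higher in skin, 8 lower and 12 not called (27.4% of all genes higher, 30.8% lower). The highest fold changes toward skin were those of Ifi27l2a (4.92) and Usp18 (3.996), and toward colon those of Samd9l (-4.31) and Oas1g (-3.92). Leaving out replicate 1 of skin lost the skin minus colon calls on Ifit2 and Xaf1 (adjusted p = 0.215 and 0.138). In that fit Mx1 went from -1.23, not called, to -4.01 (adjusted p = 0.00463). Isg20 and Parp14 were then also called lower in skin (adjusted p = 0.0207 and 0.0115). Against lung, skin was lower for 20 members and higher for 4, Oas2, Oas3, Zbp1 and Ifi27l2a (26.7% of all genes higher, 33.7% lower). Without replicate 3 of skin, Oas3 went from 1.31 to 0.60 (adjusted p = 0.399) and Zbp1 from 1.76 to 0.70 (adjusted p = 0.212), and neither was called. The call on Oas3 was also lost without any one lung library (adjusted p 0.0748 to 0.0962) and with a replicate block in the fit of all 15 libraries (adjusted p = 0.0532), and it fell just past the threshold without replicate 1 of cTEC, 1 or 2 of mTEC or 3 of colon (adjusted p 0.0501 to 0.0512). Against lung, the call on Oasl1 was lost without replicate 1 or 2 of skin (adjusted p = 0.0532 and 0.0547). Skin values varied most between libraries: the median SD of log2 CPM was 0.87 over the members and 0.44 over all genes. Fibroblast markers in skin summed to 2984, 876 and 5453 CPM and endothelial markers to 222, 77.9 and 48.4 CPM, and their part in the skin levels was not tested.

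Between the thymic groups, the fit of all 15 libraries called 1 of the 31 members, against 24.7% of all genes (15.2% higher in mTEC, 9.45% lower). That member was Isg20, log2 fold change -2.22 with SE 0.31, adjusted p = 0.000267. At an unadjusted p under 0.05 there were 4, a looser threshold that at least the same 24.7% of all genes passed. The median log2 fold change of the members was -0.083 and that of all genes 0.070, and without replicate 2 of cTEC the members' median was 0.12 and without replicate 2 of mTEC -0.44. Without replicate 3 of cTEC 4 members were lower in mTEC, Isg15, Ifit1 and Ifit3 joining Isg20, and without replicate 2 of mTEC or replicate 3 of skin 2 were. The shares of all genes called in those fits are not given here. Replicate numbers are shared between the groups, and over all genes the same-numbered cTEC and mTEC libraries deviated together (correlations below), so the blocked values are given beside these.

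With the replicate number as a block, in a fit of the 6 thymic libraries, 15 members were called, 5 higher and 10 lower in mTEC, where 22.8% of all genes were called higher and 18.4% lower (41.2% in all). The members' share called, 15 of 31, was thus near that of all genes. The same 6 libraries without the block called 2 members and 32.8% of all genes, and a block in the fit of all 15 libraries called 1 member and 23.2%. Higher in mTEC were Oas2, Oas3, Oasl1, Zbp1 and Trim30a. Lower were Isg20, Ifit1, Ifit3, Ifit3b, Rsad2, Mx2, Isg15, Ifi44, Samd9l and Xaf1.

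By role, 3 of the 4 IFIT genes were lower in mTEC and 3 of the 6 OAS genes higher, with Ifit2, Oas1a, Oas1g and Oasl2 not called. The 3 same-numbered differences of Ifit1, as log2 of mTEC over cTEC, were -1.74, -1.27 and -0.77, all negative (log2 fold change -1.31 with SE 0.18, adjusted p = 0.000338). Rsad2 had -0.99, -0.73 and -0.81 (log2 fold change -0.89 with SE 0.12, adjusted p = 0.000321). For Isg20 they were -1.95, -1.55 and -3.04 (log2 fold change -2.23 with SE 0.24, adjusted p = 7.71e-05). Each of these fell in every pair, by unequal amounts. Oas3 had 0.69, 0.68 and 1.90 (log2 fold change 1.02 with SE 0.22, adjusted p = 0.00462) and Oasl1 0.78, 0.37 and 1.31 (log2 fold change 0.77 with SE 0.18, adjusted p = 0.0061). For both, the third pair gave the largest rise, and that pair holds replicate 3 of cTEC. In levels, Oas3 had 32.4, 41.4 and 12.2 CPM in cTEC and 52.2, 66.2 and 45.7 in mTEC, and Oasl1 31.6, 48.3 and 17.7 and 54.4, 62.5 and 43.9. Of the 31 members 9 were higher in mTEC in all 3 pairs and 11 lower, against 37.3% and 27.7% of all genes.

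Leaving out one replicate number at a time from the blocked fit, 9, 11 and 18 members were called without number 1, 2 and 3 (25.7%, 28.7% and 45.7% of all genes). Called in all of these fits were 8: Oas2, Oas3 and Oasl1 higher in mTEC, and Ifit1, Ifit3, Ifit3b, Rsad2 and Isg20 lower. The share of all genes called in all of these fits is not given here, so the 8 are not set against a background. Without number 3, Oas3 stood at 0.63 and Ifit1 at -1.55 (log2 fold change). The other 7 lost their call in at least 1 of these fits: Zbp1 without number 2 or 3, Samd9l without 1 or 3, Trim30a, Isg15 and Xaf1 without 1 or 2, and Mx2 and Ifi44 without 1. These leave-out fits were added after the data had been seen. The full blocked fit leaves 2 residual degrees of freedom per gene, and 1 where a number is left out.

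**Figure D3:**
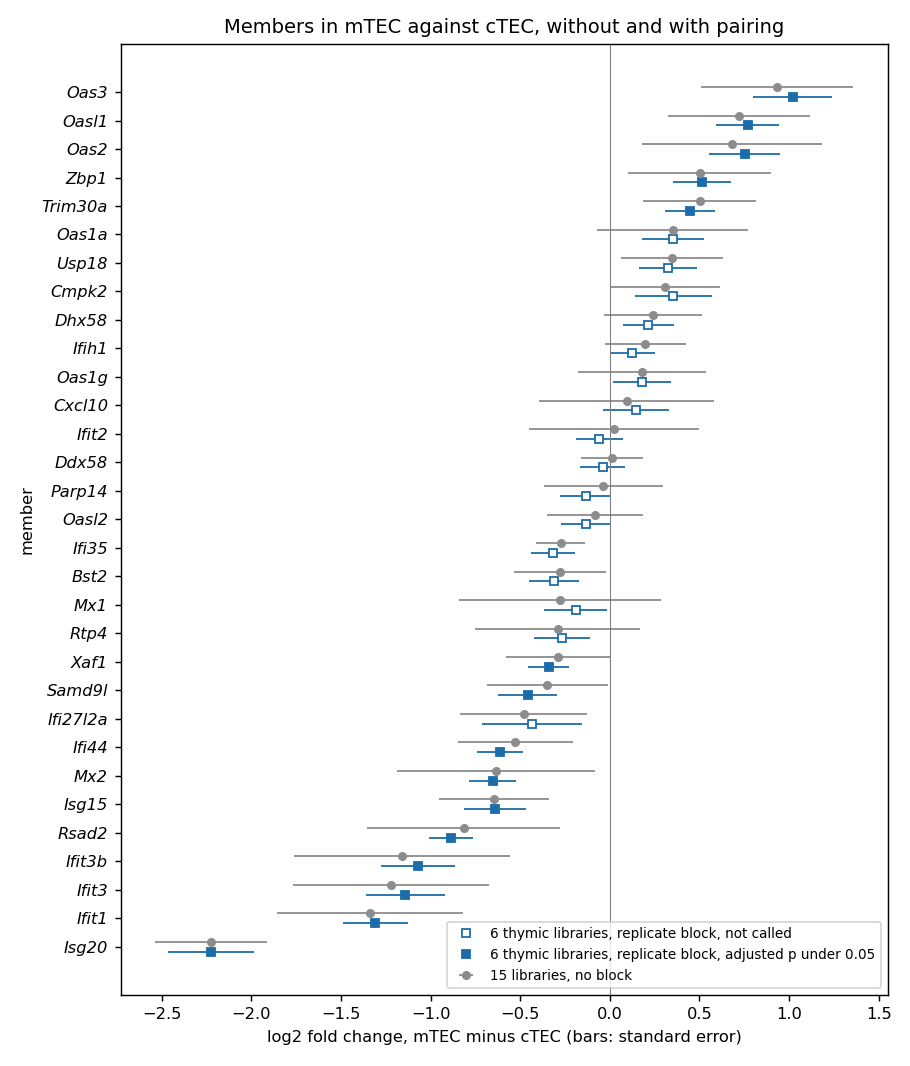
Log2 fold change of each member, mTEC minus cTEC, with standard errors: grey circles from all 15 libraries without a block, blue squares from the 6 thymic libraries with the replicate block (filled where the adjusted p is under 0.05). The estimates lie close together, the bars of the blocked fit are shorter, and 15 squares are filled against 1 member, Isg20, called without the block.

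In the thymic groups the replicate spread of the members was, by its median, above that of all genes, though in mTEC this rested on replicate 2. The median SD of log2 CPM over 3 libraries was 0.61 over the members in cTEC and 0.28 over all genes; in mTEC it was 0.42 and 0.27. Among the 9126 genes with a mean of at least 10 CPM in both groups, which includes all 31 members, the medians over genes were 0.17 and 0.19. With replicate 3 of cTEC left out, the SD of the other 2 cTEC libraries was 0.25 over the members, 0.19 over all genes and 0.12 over the 9126. With replicate 2 of mTEC left out, the members' median in mTEC was 0.17, below the 0.22 of all genes and near the 0.17 of the 9126. In lung and colon the members' medians were 0.18 and 0.24, against 0.16 and 0.19 over all genes and 0.10 and 0.14 over the 9126. Above the upper quartile of these 9126 were 29 members in cTEC, 26 in skin, 23 in mTEC and 17 each in lung and colon. The 9126 were picked by their thymic level, so outside the thymus they are not matched to the members in level. The most variable members in cTEC were Ifit3b, Rsad2 and Ifit3, with SDs of 1.14, 1.14 and 1.10. In CPM, Rsad2 had 187, 333 and 69.8 in cTEC, and Ifit3b had 129.8, 204 and 43.8. Replicate 2 was the highest and replicate 3 the lowest for both, by 4.77 and 4.66 times. The least variable were Oasl2 and Ifi35, with SDs of 0.19 and 0.22. In mTEC the widest were Rsad2 (94.5, 201 and 39.8 CPM), Ifit2 and Mx2 (61.9, 117 and 35.5 CPM), and the narrowest Usp18 and Ifi35 (121, 158 and 133 CPM).

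The variation had a shared direction. In cTEC 28 members had the order replicate 2 above 1 above 3, against 21.1% of all genes. In mTEC 22 had it, against 20.7%, and 19 had it in both groups, against 6.26%. Replicate 2 was highest for 28 members in cTEC and 30 in mTEC, against 30.2% and 30.6% of all genes. In cTEC replicate 3 was lowest for 30 members, against 45.1% of all genes. In mTEC replicate 3 was lowest for 22 and replicate 1 for 9, against 33.0% and 26.1%. The median deviation of the members from their group mean was 0.19, 0.56 and -0.66 in cTEC and -0.13, 0.43 and -0.35 in mTEC on the log2 scale, while the medians over all genes stayed between -0.042 and 0.057. Isg20 was the exception in cTEC, where its highest value was in replicate 3. In number 1 the members' deviations mostly differed in sign between the groups. Deviations within a group sum to 0, so the sign for number 1 depends on the other libraries of its group. For number 1, 27 members lay above their group mean in cTEC and 7 in mTEC, against 59.8% and 56.2% of all genes. With number 3 left out, replicate 2 was above replicate 1 for 29 members in cTEC and for 31 in mTEC, 29 of them in both, against 43.1%, 46.9% and 26.0% of all genes and 51.0%, 66.5% and 39.0% of the 9126. A common direction was not limited to the thymus: in lung 29 members were higher in replicate 2 than in replicate 1, against 48.5% of all genes. These values without a library were added after the data had been seen.

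**Figure D4:**
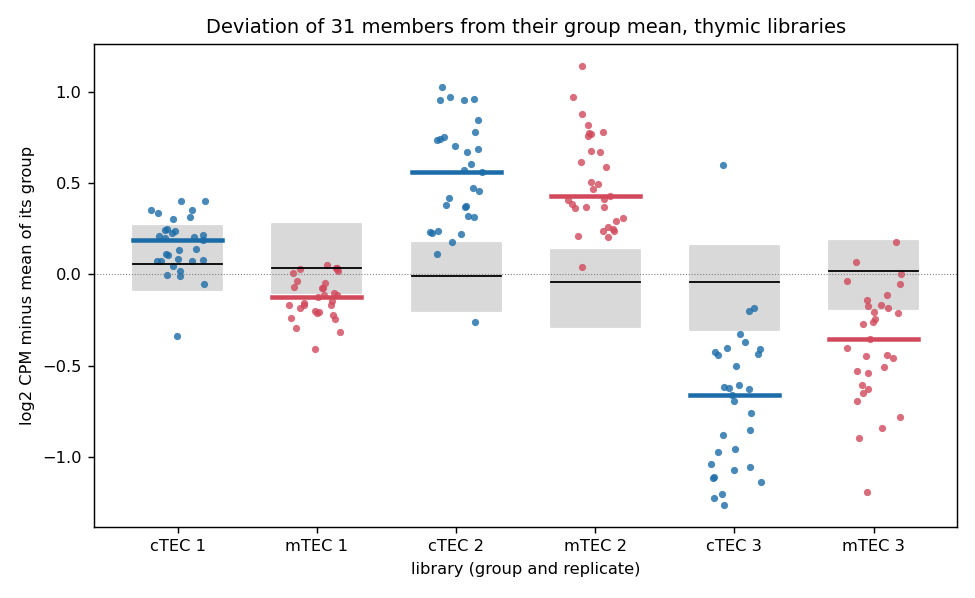
Deviation of each member (points) from the mean of its group in log2 CPM, in the 6 thymic libraries placed by replicate number; coloured bars are medians over the 31 members, black bars and grey boxes the median and quartiles of all genes tested. The members' median lies above 0 in replicate 2 (0.56 in cTEC, 0.43 in mTEC) and below it in replicate 3 (-0.66 and -0.35). In replicate 1 it lies above 0 in cTEC (0.19) and below it in mTEC (-0.13).

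Gene by gene, deviations of same-numbered cTEC and mTEC libraries had Pearson correlations of 0.19, 0.55 and 0.45 over the 31 members for numbers 1, 2 and 3. Over the 19107 genes tested they were 0.29, 0.28 and 0.16. Of the 6 pairs with different numbers, cTEC 1 with mTEC 2 had 0.39 over the members and cTEC 3 with mTEC 1 had 0.081, while the other 4 ran from -0.57 to -0.20; over all genes the 6 ran from -0.22 to -0.041. Among the 9126 genes with a mean of at least 10 CPM in both thymic groups, the same-numbered values were 0.34, 0.46 and 0.42, and the others ran from -0.52 to 0.23, the highest again for cTEC 1 with mTEC 2. The members' same-numbered values thus lay near those of genes at like levels. With replicate number 3 left out, the log2 differences between numbers 1 and 2 in cTEC and in mTEC had a correlation of 0.56 over the members, 0.35 over all genes and 0.41 over the 9126. These are descriptions, since genes are not independent and deviations of 3 libraries sum to 0. A shift common to all members does not enter these correlations. For number 1 the members' median deviations had opposite signs, 0.19 in cTEC and -0.13 in mTEC. The labels do not say what a shared number means. Genes known to rise during tissue dissociation (8 genes, none at 0) also varied between these libraries: they summed to 27781, 42171 and 18185 CPM in cTEC and 18084, 27007 and 19825 in mTEC. Replicate 2 was highest in both groups, as for the members, while the lowest was replicate 3 in cTEC and replicate 1 in mTEC. The 7 cTEC markers were highest in replicate 3 of cTEC, where the members were lowest. The part of either in the members' spread was not tested. Plasmacytoid dendritic cell markers, from a cell type known as a strong interferon source, summed to 11.0 to 13.4 CPM in cTEC and 18.9 to 21.8 in mTEC, with Siglech at 0.164 CPM or less in each group mean and Clec4b1 at 0 in cTEC. Most of these sums was Il3ra, at 9.37, 10.6 and 12.3 CPM in cTEC and 15.5, 16.3 and 16.7 in mTEC. In skin Il3ra had 8.93, 5.48 and 11.3 CPM. The myeloid and dendritic list summed to 29.3 to 54.2 CPM in cTEC and 77.7 to 182 in mTEC. Thymocyte markers summed to 105 to 146 CPM in cTEC, 34.6 to 60.3 in mTEC and at most 6.00 elsewhere, none of the 10 at 0 in either thymic group. The part of these cells in the thymic levels was not tested.

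Of 31 other interferon pathway genes 26 passed the filter. Compared with skin, 17 were higher and 3 lower in cTEC (32.5% of all genes higher, 23.9% lower), and 17 and 3 in mTEC (34.6% and 22.4%). Among transcription factors that carry the signal, Stat2 had 167, 173 and 142 CPM in cTEC and 154, 202 and 148 in mTEC, against at most 52.9 in any extrathymic library. Irf7, which amplifies interferon production, had 268, 354 and 158 CPM in cTEC and 272, 366 and 334 in mTEC, and Irf9 232, 282 and 170.3 and 166, 242 and 185. Each of Stat2, Irf7, Irf9 and Irf1 was called higher in cTEC and in mTEC than in each extrathymic group. Like most members, Irf7 and Irf9 had their lowest cTEC value in replicate 3. Of the receptors, Ifnar1, a chain of the type I interferon receptor, averaged 64.9 ± 3.53 CPM in cTEC and 93.2 ± 1.93 in lung (SD, n = 3), and cTEC minus lung was -0.52, called lower. Ifnlr1, a chain of the interferon lambda receptor, was highest in lung, at 72.8, 94.2 and 85.4 CPM, against 34.5, 49.8 and 27.0 in mTEC.

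Between the thymic groups, 7 of the 26 were higher and 6 lower in mTEC in the fit of all 15 libraries (15.2% of all genes higher, 9.45% lower), and 7 and 9 in the 6 thymic libraries with the block (22.8% and 18.4%). Irf1 was not called in the fit of all 15 libraries (adjusted p = 0.0599) and was lower with the block (log2 fold change -0.83 with SE 0.18, adjusted p = 0.004) and in the 6 thymic libraries without it (adjusted p = 0.0302). Interferon transcripts themselves were rare. Ifnb1 had 2 reads in the 3 cTEC libraries together, 46 in mTEC, 5 in lung and 0 in skin and colon. Ifnl2 and Ifnl3, which are near-identical and share reads, had 20 and 30 reads in cTEC, 98 and 75 in mTEC and 0 in all 9 extrathymic libraries, where they were not detectable at this depth. Ifnl2 was higher in mTEC in the 6 thymic libraries with the block (log2 fold change 2.22 with SE 0.58, adjusted p = 0.012) and without it (adjusted p = 0.023), and missed the threshold in the fit of all 15 libraries (adjusted p = 0.0553). Ifnl3 was called in none of these fits. The replicate of mTEC with the highest Ifnb1 and Ifnl2 was number 1, at 1.15 and 2.56 CPM. In number 2, where 30 of the 31 members were highest, these were 0.279 and 1.23 CPM. The values rest on few reads, 23, 5 and 18 of Ifnb1 and 51, 22 and 25 of Ifnl2 in mTEC replicates 1, 2 and 3. The part of these transcripts in the members' spread was not tested.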

How the data were processed

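Polyadenylated RNA of 15 libraries was measured, 3 in each of 5 groups, as labelled. Per the submitters' processing notes, reads were handled with bcl2fastq 2.20, STAR 2.5.1b, RSEM 1.2.28 and genome build GRCm38, with no annotation release named there. The deposited count of each gene is a whole number of reads on the sense strand; the files have the layout of STAR's gene counts, which take uniquely placed reads, with lines for unmapped, multiply placed and unassigned reads. Those lines held 24.2% to 46.9% of reads per library and were left out. The deposited expected count and the deposited TPM per gene come from RSEM, per the file headers; expected counts were rounded and used as an alternative, and TPM to compare genes per length.

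Counts were scaled with TMM factors and tested with edgeR 4.0.16 (R 4.3.3, limma 3.58.1) in 1 fit of 15 libraries by quasi-likelihood F-test, after filterByExpr by group, with Benjamini-Hochberg adjustment over 19107 genes; a call is an adjusted p under 0.05. Log2 CPM used a prior count of 2. The steps were tested on simulated data. Identifiers were matched to symbols for 50376 of 50600 genes. Colon and lung came from another library kit than the other groups. PCR reads without molecular identifiers are not independent molecules. No libraries of a group agreed within sampling noise (chi-square per degree of freedom 22.7 to 213).

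Same-numbered cTEC and mTEC libraries correlated over 0.1 in all 3 pairs over all genes (0.29, 0.28 and 0.16), so their numbers were taken to pair them; the pairing comes from the data, as the labels do not explain the numbers. Alternatives were other scaling (DESeq2 1.42.0 size factors, upper quartile), filters, DESeq2, a 2-fold threshold, joint adjustment over 10 comparisons, removal of Gm42418, replicate blocks and leaving out each library. Members and lists were chosen with earlier results of these data known. Values in each library were required for members with the 4 largest called changes in each direction between mTEC and cTEC, those highest outside the thymus, and the 3 most and 2 least variable in cTEC and in mTEC; other members were chosen after their values were seen. Values of 1 pathway gene are not reported here.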

Additional observations from a re-analysis of the deposited data

How the results depend on the processing

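Counts of members called kept within 1.5 times of the reported ones under every setting tried, except those given here. For mTEC minus cTEC, 0 members were higher and 1 lower; the replicate block in the 6 thymic libraries gave 5 higher and 10 lower, and leaving out number 1, 2 or 3 from it gave 4, 3 and 4 higher and 5, 8 and 14 lower. The number lower was 2 with no low-count filter, 2 with the 6 thymic libraries and no replicate block, 2 with adjustment over 10 comparisons together, and 1 to 4 when single libraries were left out. For cTEC minus lung the 1 lower member was 0 under upper quartile scaling, 0 at a 2-fold threshold, and 0 to 1 when single libraries were left out. At the 2-fold threshold, mTEC minus lung gave 0 lower, skin minus colon 7 higher, skin minus lung 2 higher and 13 lower, and lung minus colon 3 lower. The replicate block in the fit of all 15 libraries moved no count of members by over 1.5 times. The median replicate SD of the members, with single libraries of the group left out, ran from 0.25 to 0.82 in cTEC, 0.17 to 0.58 in mTEC, 0.68 to 0.78 in skin, 0.13 to 0.32 in colon and 0.082 to 0.23 in lung.

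A sign changed in 20 results on single members in 49 settings, with no call in either setting. By the replicate block in the 6 thymic libraries, by those libraries unblocked, and by that block without number 2 or 3, mTEC minus cTEC was -0.058, -0.027, -0.15 and -0.095 for Ifit2 and -0.040, -0.034, -0.10 and -0.096 for Ddx58. The block without number 2 gave 0.0024 for Mx1, and without number 3 gave -0.032 for Oas1g, -0.083 for Cxcl10 and -0.0043 for Cmpk2. Parp14 was 0.0079 with DESeq2 size factors, 0.0091 without a filter and 0.0082 in DESeq2. With the block of 15 libraries Ifit2 was -0.069 for cTEC and -0.052 for mTEC against lung. When single libraries were left out the log2 fold changes ran, in skin minus colon, Ifit1 -0.53 to 0.73, Ifit3b -0.092 to 2.32, Mx2 -0.80 to 1.04; in mTEC minus cTEC, Ifit2 -0.60 to 0.44, Mx1 -0.66 to 0.31, Oas1g -0.073 to 0.50, Oasl2 -0.21 to 0.0071, Rtp4 -0.64 to 0.13, Ddx58 -0.19 to 0.12, Ifih1 -0.075 to 0.42, Cxcl10 -0.42 to 0.68, Parp14 -0.44 to 0.22, Cmpk2 -0.041 to 0.60; in cTEC minus lung, Ifit2 -0.39 to 0.41; in mTEC minus lung, Ifit2 -0.54 to 0.43; in skin minus lung, Mx1 -2.70 to 0.79, Oas1a -0.60 to 1.09, Cxcl10 -0.070 to 0.58; in lung minus colon, Oas2 -0.27 to 0.65; in mTEC minus colon, Samd9l -0.20 to 0.56. Another 126 settings lost a call on a single member (38 results) and 101 gained one (36 results). The cause of these changes was not tested.

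Of all mTEC minus cTEC calls 61.7% were higher in mTEC, 72.2% with no filter and 79.5% at the 2-fold threshold, where the share also moved for mTEC minus skin (to 73.1%) and mTEC minus colon (to 66.0%). Each group has 3 pools, colon and lung differ from the rest in kit as well as tissue, and low levels such as Mx1 in skin rest on few reads.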
